A study of Mus musculus with 18 samples.

Results

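The genes described here are the mitochondrial carrier genes (Slc25a) and the sideroflexin genes (Sfxn), chosen by symbol from the RNA sequencing of splenic B cells of MRL/lpr mice. The rule found 52 genes, 47 of them Slc25a and 5 of them Sfxn, among the 23420 genes that every library listed. All 18 libraries came from this strain, whose Fas gene bears the lpr mutation and whose mice develop a disease like lupus. The libraries formed 6 groups of 3, made from cells purified with beads from mice that the labels give as 5 to 7 weeks old, while the methods give 5 weeks for the first arm in particular. In the first arm all mice were female and Tlr7-/-, and the control genotype, titled Tlr9+/- (called Tlr9het here), was set beside Tlr997, in which TLR9 carries the signaling TIR domain of TLR7. Cells of both genotypes were left unstimulated or received CpG (ODN 1826, a TLR9 agonist) at 10 µg/ml for 4 h. In the second arm the mice were male, Tlr9-/- and Tlr779, in which TLR7 carries the TIR domain of TLR9, and cells were left unstimulated or received CL097 (a TLR7 agonist) at 5 µg/ml for 4 h. For the first arm's control, a protocol text has Tlr9-/- where the sample titles give Tlr9+/-, and the titles were followed. The Tlr7 wild-type control of the second arm was not analysed here. Sex, genotype and agonist all differ between the arms and cannot be told apart, so the arms were not tested against each other.

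Carriers of the Slc25a family are small proteins of the inner mitochondrial membrane that exchange nucleotides, phosphate, citrate, malate, amino acids, cofactors and iron between the cytosol and the matrix, and a few of them sit in other membranes. Sideroflexins form a separate family in the inner membrane, and Sfxn1 imports serine, the carbon source of mitochondrial folate metabolism. B cells that receive a TLR agonist leave rest, grow and prepare to divide, and mitochondrial exchange of precursors and cofactors is part of that program.

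Levels were deposited as log2 CPM (each library's reads brought to about the same sum, on a log2 scale), and the methods also name quantile normalization. The read depth of each library is thus unknown and no counting intervals can be given. For the library size implied by the most frequent low value of -5.05, a gene with 3 counts would lie at -2.24 log2 CPM. In the Tlr7-/- arm, Tlr7 lay between 2.68 and 4.28 log2 CPM in Tlr9het libraries and between 4.81 and 5.36 in Tlr997 libraries. In the Tlr779 libraries it lay between 6.61 and 7.82. By the paper's supplement, the Tlr997 allele holds the Tlr7 TIR sequence within the Tlr9 locus, and the Tlr779 allele the reverse. Gene-level values cannot tell reads of an inserted sequence from those of the native gene. Tlr9 lay between 6.93 and 7.47 log2 CPM in the Tlr9-/- libraries, so its level did not check that label. Mean Tlr9 was 7.37 in Tlr9het and 7.04 in Tlr997 unstimulated, and 8.01 and 7.31 with CpG (n = 3). The part of receptor RNA in the genotype comparisons was not tested. All 7 B cell markers were found, and their summed level fell from 6080 to 6740 CPM in unstimulated Tlr9het cells to 1920 to 2010 CPM with CpG, with falls of like direction in the other genotypes. T cell markers summed to at most 32.8 CPM in any library. Plasma cell markers lay between 321 and 896 CPM unstimulated and between 193 and 553 CPM with agonist, and macrophage markers between 111 and 426 and between 72.4 and 172 CPM. Neutrophil markers lay between 33.3 and 185 CPM unstimulated and between 19.1 and 130 CPM with agonist. Those of plasmacytoid dendritic cells lay between 62 and 89.8 CPM unstimulated and between 28 and 44.6 CPM with agonist. Most of that last level came from Pacsin1, which was called lower in every response, whereas Siglech and Ccr9 were called in none. The part of these markers in the responses was not tested. Erythroid markers varied between libraries, from 14.9 to 987 CPM, and their values are given beside the iron carriers and Slc25a21. Most members were not set beside them. In these bulk samples, fewer cells of a type and less RNA per cell cannot be told apart.

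Of the 52 genes, 44 were tested in the Tlr7-/- arm and 42 in Tlr779, which is all those with at least 3 libraries of the arm above 0 log2 CPM. Slc25a27 and Slc25a47 were tested only in the first arm. The 8 that passed in neither arm were Slc25a2, Slc25a21, Slc25a31, Slc25a34, Slc25a41, Slc25a43, Slc25a48 and Slc25a54. Slc25a48 and Slc25a54 stood at -5.05 log2 CPM in every library, and Slc25a31, the adenine nucleotide carrier of the testis, between -5.14 and -2.54. Slc25a43 reached 0.58 log2 CPM in its highest library and -2.85 in its lowest. Per kilobase of exon (GENCODE vM21 models on GRCm38), the highest level in unstimulated Tlr9het cells was that of Slc25a5, an exchanger of ADP for ATP, at 7.94 log2 CPM per kb. The phosphate carrier Slc25a3 followed at 5.998, the other adenine nucleotide carrier Slc25a4 at 5.39 and the glutathione carrier Slc25a39 at 5.11 log2 CPM per kb. Slc25a11 at 4.85 and the citrate carrier Slc25a1 at 4.79 came next, and these last levels were closer to each other than the libraries of Slc25a11 were (SD 0.18, n = 3). How reads shared between near-identical gene copies were counted is not given in the sources used here. Its part in the levels of Slc25a5, Slc25a4 and the other members was not tested.

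The first question was how many of these genes an agonist moved in each genotype. A gene was called where limma gave a Benjamini-Hochberg adjusted p under 0.05 over all genes tested and the absolute log2 fold change was over 0.5. With CpG, 13 of the 44 members rose and 15 fell in Tlr9het, or 63.6% called. Of all 11494 tested genes, 29.7% rose and 28.2% fell, or 57.8% called. The median log2 fold change was -0.002 over the members and 0.038 over all genes. In Tlr997, 16 rose and 15 fell, or 70.5% called, where 29.6% of all genes rose and 26% fell, or 55.6% called, with medians of 0.17 and 0.07. With CL097, 14 of 42 rose and 13 fell in Tlr779, or 64.3% called, where 22.7% of all 11082 genes tested rose and 23.6% fell, or 46.3% called, with medians of -0.09 and -0.02. Members were thus called in both directions, at a share near that of all genes in Tlr9het and above it in the other responses. Among those with a mean over 4 log2 CPM, 70.8% of 24 members were called in each CpG response, beside 60.3% of all such genes in Tlr9het and 56.6% in Tlr997, and with CL097 50% of 22 members beside 46.4%. No test was made of these shares, and the counts include 2 members in each arm, Slc25a35 with Slc25a47 in the first and with Slc25a18 in Tlr779, that met the condition for testing only through the condition in which they were high.

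The 3 responses come from separate libraries, and 42 members were tested in each of them. Among them 9 rose in every response, with Slc25a33, Slc25a26, Slc25a32, Slc25a13, Slc25a1, Slc25a22, Slc25a39 and Sfxn1 among these, where 19% of the 11012 genes tested in every response did so. Another 10 fell in every response, namely Slc25a35, Slc25a45, Slc25a23, Slc25a24, Slc25a11, Slc25a4, Slc25a30, Slc25a51, Slc25a53 and Sfxn3, again beside 19% of all genes, and both counts were near that background. There were 0 members called higher in one response and lower in another, beside 0.236% of all genes. Slc25a20, Slc25a25, Slc25a3, Slc25a38, Slc25a44 and Slc25a46 were called in none, with log2 fold changes between -0.45 for Slc25a46 in Tlr779 and 0.44 for Slc25a25 in Tlr779.

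**Figure D1:**
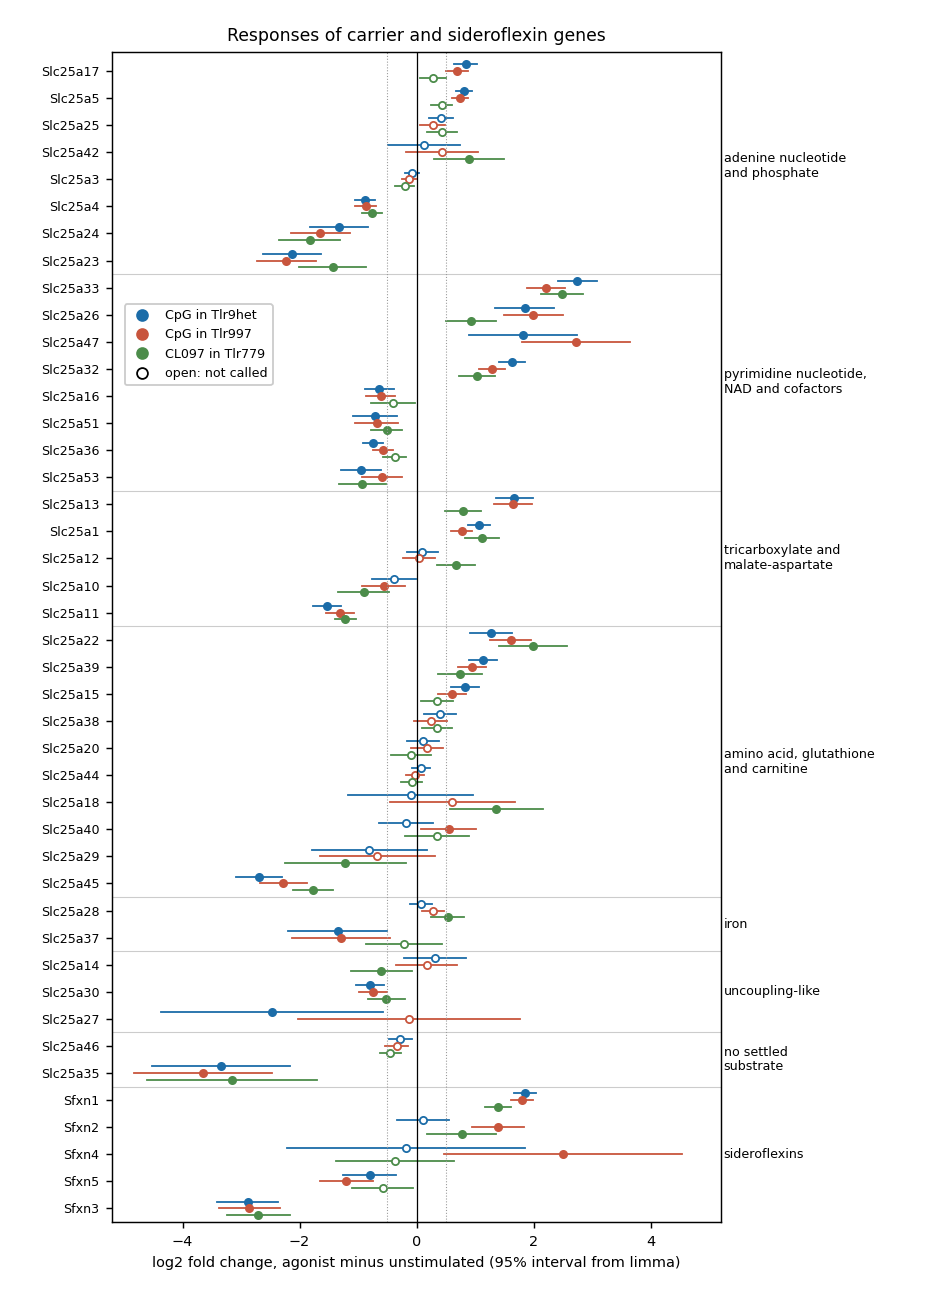
Log2 fold change (x axis, agonist minus unstimulated) of the tested genes described here in the 3 responses, grouped by role, with 95% intervals from limma. Filled points were called and open points were not. In the pyrimidine nucleotide, NAD and cofactor group, every gene plotted was called with CpG in both genotypes, some above and some below 0. Among these, Slc25a47 met the condition for testing only through its CpG libraries.

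Carriers of pyrimidine nucleotides, NAD and cofactors split into 2 sets. In both CpG responses all 9 were called, 5 higher and 4 lower, and with CL097 4 of 8 rose and 2 fell. Of all genes tested, 57.8%, 55.6% and 46.3% were called in Tlr9het, Tlr997 and Tlr779. These shares also stand beside the counts of the role groups below. The 9 include Slc25a47, which met the condition for testing only through its CpG libraries. Those that rose with CpG include carriers of pyrimidine nucleotides (Slc25a33), S-adenosylmethionine (Slc25a26) and folate (Slc25a32), and Slc25a47, a liver carrier. The 4 that fell were Slc25a36, a second pyrimidine nucleotide carrier, Slc25a51, the NAD carrier, its relative Slc25a53, and Slc25a16, linked to coenzyme A.

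Slc25a33 (chr4:149744036-149774277, minus strand) had the largest rise of any tested member in Tlr9het and Tlr779. In Tlr9het it stood at 3.01, 3.19 and 2.85 log2 CPM unstimulated and at 5.65, 5.90 and 5.76 with CpG. In Tlr997 it stood at 3.10, 3.30 and 3.74 log2 CPM unstimulated and at 5.67, 5.65 and 5.47 with CpG. In Tlr779 it stood at 2.64, 2.81 and 2.601 log2 CPM unstimulated and at 5.44, 5.17 and 4.91 with CL097. Stimulated libraries were higher than unstimulated ones in every genotype, and the narrowest gap between them, in Tlr997, was 1.73 log2 units. The log2 fold changes by limma were 2.75 (SE 0.15, adjusted p = 1.64e-09), 2.22 (SE 0.15, adjusted p = 1.73e-08) and 2.49 (SE 0.16, adjusted p = 8.92e-06).

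Slc25a36 carries the same kind of nucleotide and moved the other way. Its level was 6.26, 6.23 and 6.24 log2 CPM in unstimulated Tlr9het cells and 5.61, 5.46 and 5.43 with CpG. The groups did not overlap, and it fell by 0.75 (SE 0.08, limma, adjusted p = 1.23e-06) in Tlr9het and by 0.58 (adjusted p = 1.71e-05) in Tlr997 on the log2 scale. With CL097 its change of -0.37 (adjusted p = 0.00527) passed the p but not the fold limit. At rest Slc25a36 stood at 2.99 and Slc25a33 at 2.10 log2 CPM per kb in Tlr9het, and with CpG the order was turned, at 2.24 and 4.85.

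Promoter sequence is shown for the rising carriers Slc25a33, Slc25a13 and Slc25a1 and for Sfxn2, described further on, because the letters CACGTG occur in them. This is the core of the E-box that basic helix-loop-helix factors such as MYC can bind, and it reads the same on both strands. Among 27025 genes with a RefSeq promoter of 250 bases before to 50 after the start (GRCm38.p6), 8.09% held it, and among the 41 members with an entry 8 held it (19.5%). These were Sfxn2, Slc25a1, Slc25a13, Slc25a14, Slc25a15, Slc25a31, Slc25a33 and Slc25a36. By the CpG call in Tlr9het it was in 4 of 10 promoters of members that rose, 1 of 11 of those that fell and 2 of 14 of those not called. The share among all genes was not computed by call, and the 8.09% covers genes whether or not they were tested. These counts are therefore no support for a link between the motif and the rise, which was not tested. The windows of 250 bases before the start lie at chr4:149774268-149774517 (minus strand), chr6:6217174-6217423 (minus), chr16:17928220-17928469 (minus) and chr19:46573115-46573364 (plus). They are written 5′ to 3′ along the gene with the motif in capitals. Its first base lies 8, 125, 239 and 59 bases before the RefSeq start. For Slc25a33 the GENCODE gene starts further upstream, at 149774277, so the motif lies inside the gene as GENCODE places it.
Slc25a33: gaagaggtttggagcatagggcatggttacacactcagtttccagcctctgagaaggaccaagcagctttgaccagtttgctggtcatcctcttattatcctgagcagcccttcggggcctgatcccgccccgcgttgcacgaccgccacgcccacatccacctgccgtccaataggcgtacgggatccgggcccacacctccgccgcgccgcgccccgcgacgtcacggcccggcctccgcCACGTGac
Slc25a13: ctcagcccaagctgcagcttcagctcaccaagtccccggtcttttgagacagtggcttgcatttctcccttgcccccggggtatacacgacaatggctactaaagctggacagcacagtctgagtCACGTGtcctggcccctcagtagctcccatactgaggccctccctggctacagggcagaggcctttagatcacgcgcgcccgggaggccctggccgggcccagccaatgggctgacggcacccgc
Slc25a1: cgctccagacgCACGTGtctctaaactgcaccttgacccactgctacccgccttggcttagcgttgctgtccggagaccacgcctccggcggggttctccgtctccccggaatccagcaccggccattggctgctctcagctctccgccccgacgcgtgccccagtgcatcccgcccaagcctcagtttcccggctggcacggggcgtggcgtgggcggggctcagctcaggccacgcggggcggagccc
Sfxn2: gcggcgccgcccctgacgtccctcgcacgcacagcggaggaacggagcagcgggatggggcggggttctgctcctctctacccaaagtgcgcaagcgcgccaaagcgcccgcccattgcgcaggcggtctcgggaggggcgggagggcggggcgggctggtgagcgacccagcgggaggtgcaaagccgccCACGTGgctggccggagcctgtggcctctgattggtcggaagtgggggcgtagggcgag
A match of letters is a description of the window and no binding was measured. Slc25a2, Slc25a26, Slc25a27, Slc25a32, Slc25a35, Slc25a37, Slc25a41, Slc25a44, Slc25a46 and Slc25a51 were not among those with an entry.

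Slc25a26 brings S-adenosylmethionine, the methyl donor, into the matrix. Unstimulated Tlr9het libraries held 1.99, 1.93 and 2.46 log2 CPM and those with CpG 3.79, 4.10 and 4.04. Unstimulated Tlr997 libraries held 2.37, 2.13 and 1.37 log2 CPM and those with CpG 3.90, 3.99 and 3.97. Unstimulated Tlr779 libraries held 1.78, 2.08 and 1.79 log2 CPM and those with CL097 2.80, 2.68 and 2.96. Stimulated and unstimulated libraries did not overlap in any genotype, and the 3 CL097 libraries lay below all 6 CpG libraries. The log2 fold changes were 1.85 (SE 0.23) in Tlr9het, 2.00 (SE 0.23) in Tlr997 and 0.93 (SE 0.18) in Tlr779, with limma adjusted p of 7.71e-06, 4.04e-06 and 0.00274.

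Slc25a32, which carries folate into mitochondria, rose with small spread. Its level in Tlr9het was 4.57, 4.52 and 4.43 log2 CPM unstimulated and 6.13, 6.21 and 6.08 with CpG. In Tlr997 it was 4.57, 4.64 and 5.02 log2 CPM unstimulated and 5.97, 6.09 and 6.03 with CpG. Stimulated libraries were all higher, and the log2 fold changes were 1.64 (SE 0.10, limma, adjusted p = 7.38e-09) and 1.29 (SE 0.10, adjusted p = 9.98e-08). With CL097 it rose by 1.03 (SE 0.13, adjusted p = 0.000244).

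The carriers of NAD and its relative fell by less. Slc25a51 stood at 6.64, 6.66 and 6.46 log2 CPM in unstimulated Tlr9het cells and at 6.02, 5.91 and 5.69 with CpG, and it fell by 0.71 (SE 0.17, limma, adjusted p = 0.00199). Its falls of 0.68 in Tlr997 and 0.51 in Tlr779 dropped under the fold limit without unstimulated Tlr997 library 1 (-0.47) and without CL097 library 1 (-0.42) or unstimulated Tlr779 library 2 (-0.43). These unstimulated libraries held the most erythroid marker RNA of their groups (794 and 692 CPM) and the most Slc25a51. The same library led for both in the other groups except unstimulated Tlr9het, and the part of these markers was not tested. Slc25a53 fell by 0.95 (adjusted p = 0.000101), 0.59 (adjusted p = 0.00435) and 0.93 (adjusted p = 0.00207), and its Tlr997 call was lost without unstimulated library 1 (-0.44) or CpG library 1 (-0.49). Slc25a16 fell by 0.64 and 0.61 with CpG and changed by -0.40 (adjusted p = 0.0653) with CL097.

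Slc25a47 was low at rest, and its values rest on few counts. Across Tlr9het libraries the level was -0.11, -1.36 and -0.59 log2 CPM unstimulated and 1.19, 0.97 and 1.24 with CpG. Across Tlr997 libraries the level was -0.82, -1.79 and -1.17 log2 CPM unstimulated and 1.27, 1.99 and 1.13 with CpG. It met the condition for testing only through its CpG libraries, where it was high, so its call in the fit of filtered genes is no support. In the limma fit of all genes with no filter, its log2 fold changes were 1.82 (SE 0.40, adjusted p = 0.0055) in Tlr9het and 2.72 (SE 0.40, adjusted p = 0.00049) in Tlr997. In Tlr779, where it was not tested, it stood at -2.27, -1.47 and -0.58 log2 CPM unstimulated and at 1.05, 0.49 and -0.37 with CL097.

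The carriers around citrate and the malate-aspartate shuttle also moved in both directions. The shuttle passes reducing equivalents from cytosolic NADH into the matrix through an aspartate-glutamate carrier (Slc25a12 or Slc25a13) and the oxoglutarate-malate carrier (Slc25a11). Of the 5 tested in this group, 2 rose and 1 fell with CpG in Tlr9het, 2 rose and 2 fell in Tlr997, and 3 rose and 2 fell with CL097.

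Slc25a13 stood at 3.11, 3.24 and 3.19 log2 CPM in unstimulated Tlr9het cells and at 4.61, 5.04 and 4.90 with CpG. In Tlr997 it stood at 3.16, 3.56 and 3.10 log2 CPM unstimulated and at 4.81, 5.09 and 4.87 with CpG. Across Tlr779 libraries the level was 3.41, 3.11 and 3.33 log2 CPM unstimulated and 4.19, 4.03 and 4.00 with CL097. Every stimulated library was above every unstimulated library. The log2 fold changes were 1.67 (SE 0.15, limma, adjusted p = 2.14e-07), 1.65 (SE 0.15, adjusted p = 2.74e-07) and 0.79 (SE 0.13, adjusted p = 0.00121). Its paralog Slc25a12 had log2 fold changes of 0.10 (adjusted p = 0.49) and 0.04 (adjusted p = 0.78) with CpG and rose by 0.68 (adjusted p = 0.00345) with CL097.

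Slc25a11, the other carrier of the shuttle, fell in every response. Its level in Tlr9het was 5.75, 5.96 and 6.10 log2 CPM unstimulated and 4.39, 4.36 and 4.46 with CpG. In Tlr997 it was 6.20, 5.97 and 5.81 log2 CPM unstimulated and 4.72, 4.55 and 4.78 with CpG. In Tlr779 it was 6.15, 6.25 and 6.14 log2 CPM unstimulated and 5.02, 4.94 and 4.94 with CL097. All 9 stimulated libraries lay below all 9 unstimulated libraries. It fell, with log2 fold changes of -1.53 (SE 0.11, limma, adjusted p = 3.15e-08), -1.31 (SE 0.11, adjusted p = 1.79e-07) and -1.21 (SE 0.08, adjusted p = 9.19e-06).

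The citrate carrier Slc25a1 exports the citrate from which cytosolic acetyl-CoA is made. In Tlr9het it stood at 5.87, 5.87 and 5.97 log2 CPM unstimulated and at 6.95, 6.96 and 7.01 with CpG. The groups lay far apart, and it rose by 1.07 (SE 0.09, limma, adjusted p = 7.9e-08) in Tlr9het, 0.77 (SE 0.09, adjusted p = 2.51e-06) in Tlr997 and 1.12 (SE 0.13, adjusted p = 0.000141) in Tlr779. Slc25a10, the dicarboxylate carrier, had a log2 fold change of -0.38 (adjusted p = 0.0584) in Tlr9het and fell by 0.56 (adjusted p = 0.0099) in Tlr997 and by 0.90 (adjusted p = 0.00373) in Tlr779. The Tlr997 call for Slc25a10 was lost without unstimulated library 3 (-0.43) and without CpG library 1 (-0.50).

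**Figure D2:**
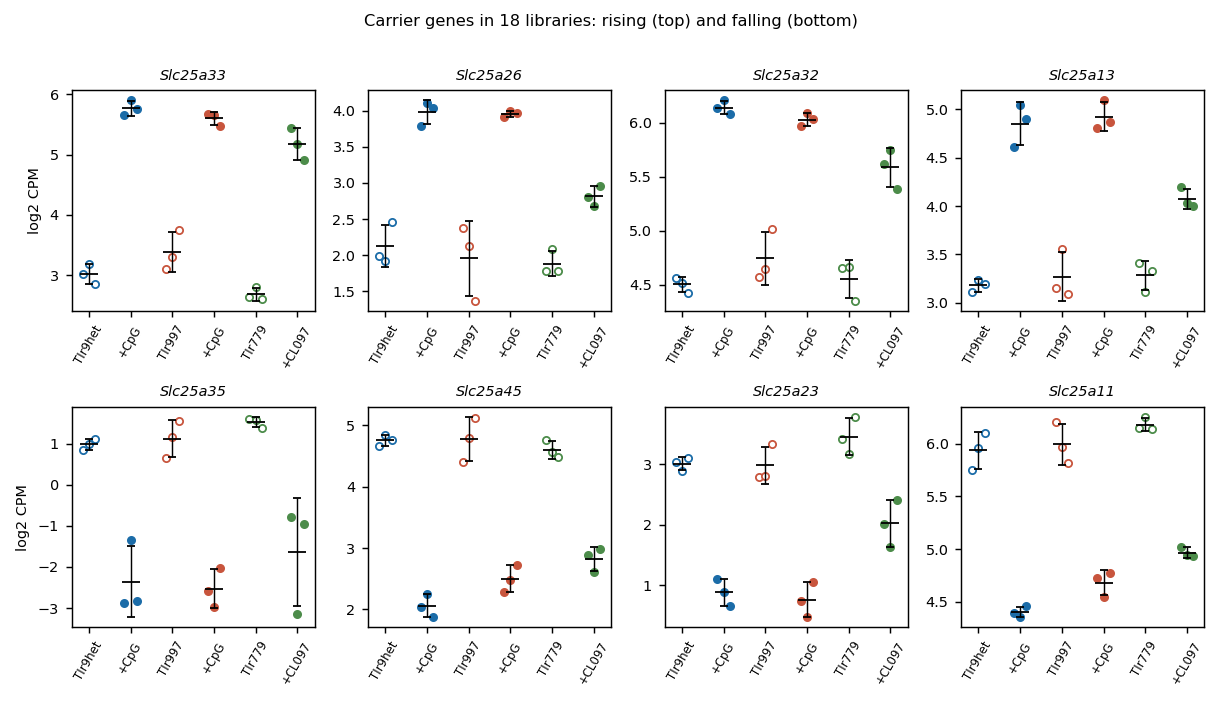
Log2 CPM (y axis) of 8 carrier genes in each of the 18 libraries, by group (x axis), with open points for unstimulated and filled points for stimulated libraries and bars for the mean ± SD (n = 3). In the 4 panels of the first line all stimulated points lie above the unstimulated points of their genotype, and in the 4 others they lie under them.

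Among the adenine nucleotide and phosphate carriers, 2 of 8 rose and 3 fell with CpG in each genotype, and 1 rose and 3 fell with CL097. The paralogs Slc25a5 (also called Ant2) and Slc25a4 (Ant1), which exchange ADP and ATP, moved apart. Slc25a5 stood at 8.57, 8.70 and 8.71 log2 CPM in unstimulated Tlr9het cells and at 9.41, 9.49 and 9.50 with CpG. Slc25a4 stood at 6.52, 6.68 and 6.66 log2 CPM unstimulated and at 5.61, 5.90 and 5.71 with CpG. Neither gene's groups overlapped. Slc25a5 rose by 0.81 (SE 0.07, limma, adjusted p = 9.67e-08) and 0.74 (SE 0.07, adjusted p = 2.71e-07) with CpG in Tlr9het and Tlr997, and its change of 0.43 (adjusted p = 0.00175) with CL097 was within the fold limit. Slc25a4 fell by 0.88 (SE 0.08, adjusted p = 3.89e-07), 0.87 (SE 0.08, adjusted p = 4.86e-07) and 0.76 (SE 0.08, adjusted p = 7.05e-05). The phosphate carrier Slc25a3, needed with them for ATP synthesis, had changes of -0.08, -0.13 and -0.20 on the log2 scale.

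The carriers that exchange ATP-Mg for phosphate under control of calcium are Slc25a23, Slc25a24 and Slc25a25. In Tlr9het, Slc25a23 stood at 3.04, 2.89 and 3.10 log2 CPM unstimulated and at 1.10, 0.89 and 0.65 with CpG. Unstimulated Tlr997 libraries held 2.80, 2.81 and 3.34 log2 CPM and those with CpG 0.74, 0.48 and 1.05. In Tlr779 it stood at 3.41, 3.18 and 3.79 log2 CPM unstimulated and at 2.01, 1.64 and 2.41 with CL097. Stimulated libraries were lower without overlap in each genotype. The fall was called each time, with log2 fold changes of -2.13 (SE 0.23, limma, adjusted p = 1.82e-06), -2.22 (SE 0.23, adjusted p = 1.31e-06) and -1.44 (SE 0.25, adjusted p = 0.00136). Slc25a24 stood at 3.19, 3.04 and 3.03 log2 CPM in unstimulated Tlr779 cells and at 1.13, 1.67 and 0.97 with CL097, without overlap. In Tlr997 it stood at 3.49, 3.15 and 3.96 log2 CPM unstimulated and at 2.30, 1.71 and 1.67 with CpG, also without overlap. Slc25a24 fell by 1.33 (SE 0.23), 1.64 (SE 0.23) and 1.83 (SE 0.23), whereas Slc25a25 had log2 fold changes of 0.42, 0.28 and 0.44 and was not called. Slc25a42, a carrier of coenzyme A, had changes of 0.13 and 0.44 with CpG and rose by 0.90 (adjusted p = 0.0167) with CL097, a call lost without CL097 library 1 or unstimulated libraries 2 or 3 (adjusted p between 0.0516 and 0.0549). Slc25a17, the carrier of the peroxisome, rose by 0.84 and 0.69 with CpG and had a change of 0.28 with CL097.

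Of the 10 tested carriers of amino acids, glutathione and carnitine, 3 rose and 1 fell with CpG in Tlr9het, 4 rose and 1 fell in Tlr997, and 3 rose and 2 fell with CL097. Those that rose with CL097 include Slc25a18, which met the condition for testing only through its CL097 libraries. Slc25a22, a glutamate carrier, stood at 5.35, 5.17 and 4.90 log2 CPM in unstimulated Tlr9het cells and at 6.56, 6.21 and 6.46 with CpG. Across Tlr997 libraries the level was 4.71, 5.34 and 5.42 log2 CPM unstimulated and 6.71, 6.75 and 6.83 with CpG. Unstimulated Tlr779 libraries held 4.99, 4.44 and 4.67 log2 CPM and those with CL097 7.12, 6.12 and 6.83. All stimulated libraries were higher than all unstimulated ones. It rose by 1.27 (SE 0.17, limma, adjusted p = 1.09e-05), 1.61 (SE 0.17, adjusted p = 1.19e-06) and 1.99 (SE 0.25, adjusted p = 0.000239).

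The other glutamate carrier, Slc25a18, was low and spread widely in the first arm. Across Tlr779 libraries the level was -0.64, -0.67 and -0.34 log2 CPM unstimulated and 0.76, 0.49 and 1.20 with CL097. It met the condition for testing only through the CL097 libraries, and no longer without any one of them. In the limma fit of all genes with no filter, its log2 fold change was 1.37 (SE 0.28, adjusted p = 0.0275). With CpG its log2 fold changes were -0.10 (adjusted p = 0.869) in Tlr9het and 0.61 (adjusted p = 0.279) in Tlr997.

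Slc25a39 carries glutathione into the matrix and rose in every response. It stood at 6.79, 6.54 and 6.39 log2 CPM in unstimulated Tlr9het cells and at 7.78, 7.73 and 7.63 with CpG. These groups did not overlap, and it rose by 1.14 (SE 0.11, limma, adjusted p = 5.67e-07), 0.95 (SE 0.11, adjusted p = 4.19e-06) and 0.74 (SE 0.16, adjusted p = 0.00436). The Tlr779 call was lost with no filter on low genes (adjusted p = 0.0605). In each of the 6 groups the library with the most erythroid marker RNA, given further on, was also the highest for Slc25a39. The part of these markers in the Slc25a39 values was not tested. Its paralog Slc25a40 was called in Tlr997 alone, at 0.55 (adjusted p = 0.0349), a call lost without unstimulated library 3 (0.30) or CpG libraries 1 (0.46) or 3 (0.49), and its difference between the CpG responses was not called (0.73, adjusted p = 0.258). The ornithine carrier Slc25a15 rose by 0.83 and 0.61 with CpG and had a change of 0.35 with CL097. Slc25a20, which carries acylcarnitines for fat oxidation, Slc25a38, which carries glycine for haem synthesis, and Slc25a44, which carries branched-chain amino acids, were not called, with changes in Tlr9het of 0.11, 0.40 and 0.07.

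Slc25a45 on chromosome 19 was the member of this group that fell. Unstimulated Tlr9het libraries held 4.67, 4.84 and 4.76 log2 CPM and those with CpG 2.04, 2.26 and 1.88. In Tlr997 it stood at 4.40, 4.80 and 5.13 log2 CPM unstimulated and at 2.29, 2.49 and 2.73 with CpG. In Tlr779 it stood at 4.76, 4.57 and 4.48 log2 CPM unstimulated and at 2.88, 2.61 and 2.99 with CL097. All 9 stimulated libraries lay below all 9 unstimulated ones, with a gap of 1.41 log2 units. It fell, with log2 fold changes of -2.70 (SE 0.18, limma, adjusted p = 1.42e-08), -2.27 (SE 0.18, adjusted p = 9.45e-08) and -1.78 (SE 0.15, adjusted p = 2.95e-05). Slc25a29, a carrier of basic amino acids, had log2 fold changes of -0.81 (adjusted p = 0.127) and -0.67 (adjusted p = 0.205) with CpG and fell by 1.22 (adjusted p = 0.0434) with CL097, a call lost on leaving out any of 5 of the 6 libraries.

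The iron carriers are the mitoferrins Slc25a37, which serves haem synthesis in red cell precursors, and Slc25a28, which is found more widely. Slc25a37 stood at 7.01, 6.29 and 6.0 log2 CPM in unstimulated Tlr9het cells and at 5.74, 4.97 and 4.53 with CpG. Unstimulated Tlr997 libraries held 7.03, 5.99 and 6.35 log2 CPM and those with CpG 5.97, 4.88 and 4.64. Unstimulated Tlr779 libraries held 6.71, 7.09 and 6.47 log2 CPM and those with CL097 5.98, 7.17 and 6.47. The CpG libraries lay below the unstimulated ones without overlap in both genotypes, though in Tlr997 by only 0.013, and the Tlr779 groups overlapped. It fell by 1.35 (SE 0.39, limma, adjusted p = 0.00687) and 1.29 (SE 0.39, adjusted p = 0.00927) with CpG, and with CL097 its change was -0.22 (adjusted p = 0.533). Both CpG calls were lost with no filter on low genes (adjusted p = 0.0563 and 0.0679).

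In each of the 6 groups Slc25a37 was highest in the library with the most erythroid marker RNA. The summed level of 8 found erythroid markers was 286, 57.7 and 15.8 CPM in unstimulated Tlr9het libraries 1, 2 and 3 and 209, 44.8 and 14.9 CPM with CpG. In Tlr997 it was 794, 36.2 and 68.9 CPM unstimulated and 400, 28.2 and 47.3 CPM with CpG. In Tlr779 it was 131, 692 and 180 CPM unstimulated and 137, 987 and 619 CPM with CL097. Alas2 and Slc4a1 were among these markers, and the globin genes Hba-a1 and Hba-a2 stood at -5.05 log2 CPM in every library. The part of these markers in the Slc25a37 values was not tested. Slc25a28 stood between 4.61 and 5.45 log2 CPM in all libraries and rose by 0.53 (adjusted p = 0.00623) with CL097, a call lost without CL097 library 1 (0.44) or unstimulated library 2 (0.47).

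Slc25a21, a carrier of oxodicarboxylates that was too low to be tested, was also uneven between libraries. With CL097 it stood at -0.35, 1.95 and 1.14 log2 CPM, and in unstimulated Tlr779 cells at -4.17, -2.40 and -1.98. In Tlr9het it stood at -1.78, -4.51 and -5.80 log2 CPM unstimulated and at -1.37, -5.19 and -5.80 with CpG, in the order of the erythroid sums. In Tlr997 it was -0.78, -3.39 and -5.80 log2 CPM unstimulated and 0.037, -3.42 and -3.48 with CpG, where libraries 2 and 3 did not follow that order. The value -5.80 was shared by library 3 of Tlr9het, with and without CpG, and of unstimulated Tlr997. Values under the -2.24 log2 CPM of 3 counts rest on few counts, so the order among such libraries is uncertain. In unstimulated Tlr779 cells library 3 was above library 2, against the order of the sums. Library 1, where that sum was highest in each group of the first arm, was also the highest for Slc25a21 in each of them, and in Tlr779 all 3 CL097 libraries were above all unstimulated ones. The part of the erythroid markers in these values was not tested.

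**Figure D3:**
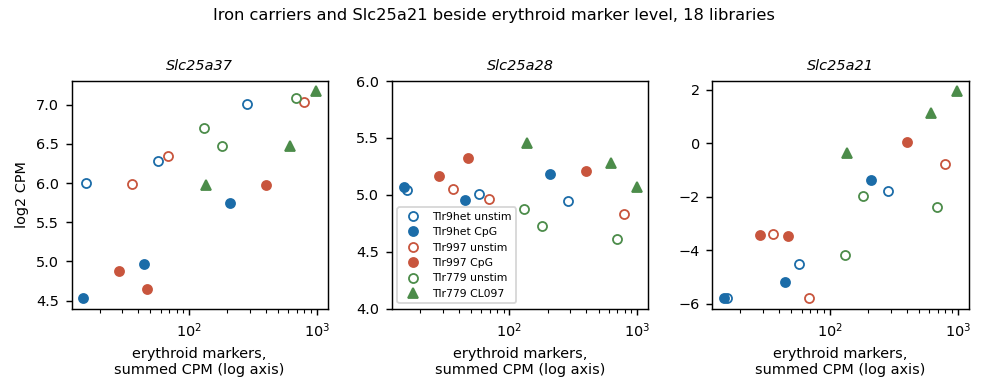
Log2 CPM (y axis) of Slc25a37, Slc25a28 and Slc25a21 against the summed CPM of erythroid markers (x axis, log scale) in the 18 libraries, with open points for unstimulated and filled symbols for stimulated libraries. In each group the library with the most erythroid RNA is the highest for Slc25a37, Slc25a21 follows the marker sums in some groups and not in others, and Slc25a28 stays between 4.61 and 5.45. Many Slc25a21 values lie under the level of 3 counts.

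The carriers that resemble uncoupling proteins are Slc25a14, Slc25a27 and Slc25a30. Slc25a30 fell by 0.80 (SE 0.11, limma, adjusted p = 2.04e-05), 0.74 (SE 0.11, adjusted p = 4.56e-05) and 0.51 (SE 0.13, adjusted p = 0.0106), the last being lost without CL097 library 3 (-0.42) or unstimulated library 1 (-0.46). Slc25a27 stood at -0.70, 0.29 and 0.41 log2 CPM in unstimulated Tlr9het cells and at -0.63, -2.14 and -4.66 with CpG, and the groups overlapped. It was called lower in Tlr9het (-2.47, SE 0.88, adjusted p = 0.0214), but without CpG library 3, which lay near the lowest value in the data, its change was -1.38 and the call was lost (adjusted p = 0.0983), as it was with no filter on low genes (0.0816). In Tlr997 its change was -0.13 (adjusted p = 0.898). Slc25a14 had changes of 0.32 and 0.17 with CpG, and its fall of 0.60 (adjusted p = 0.0474) with CL097 was lost on leaving out any of 5 of the 6 libraries.

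Slc25a35, whose substrate is not settled, had the lowest log2 fold change of the tested members in every response. Across Tlr9het libraries the level was 0.84, 1.01 and 1.11 log2 CPM unstimulated and -2.88, -1.35 and -2.84 with CpG. Across Tlr997 libraries the level was 0.64, 1.17 and 1.56 log2 CPM unstimulated and -2.58, -2.97 and -2.03 with CpG. Across Tlr779 libraries the level was 1.61, 1.59 and 1.38 log2 CPM unstimulated and -0.78, -3.14 and -0.96 with CL097. All stimulated libraries were below all unstimulated ones, and 5 of the 9 lay under the -2.24 log2 CPM of 3 counts, so the size of the fall rests on few counts. It met the condition for testing only through its unstimulated libraries, where it was high. In the limma fit of all genes with no filter, the log2 fold changes were -3.34 (SE 0.48, adjusted p = 0.000419), -3.65 (SE 0.48, adjusted p = 0.000256) and -3.16 (SE 0.74, adjusted p = 0.0412). In Tlr779 it no longer met the condition for testing once an unstimulated library was left out. Slc25a46, a protein of the outer membrane, had changes of -0.28, -0.34 and -0.45 and was not called.

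Of the 5 sideroflexins, 1 rose and 2 fell with CpG in Tlr9het, 3 rose and 2 fell in Tlr997, and 2 rose and 1 fell with CL097. Sfxn2, Sfxn3 and Sfxn4 lie on chromosome 19, as do Slc25a28 and Slc25a45. Sfxn1, the serine transporter, stood at 6.28, 6.21 and 6.23 log2 CPM in unstimulated Tlr9het cells and at 7.98, 8.08 and 8.19 with CpG. In Tlr997 it stood at 6.16, 6.47 and 6.57 log2 CPM unstimulated and at 8.21, 8.21 and 8.18 with CpG. In Tlr779 it stood at 6.47, 6.64 and 6.32 log2 CPM unstimulated and at 7.97, 7.85 and 7.79 with CL097. All 9 stimulated libraries were above all 9 unstimulated ones, with a gap of 1.15 log2 units. It rose by 1.85 (SE 0.09, limma, adjusted p = 4.42e-10), 1.80 (SE 0.09, adjusted p = 7.46e-10) and 1.39 (SE 0.09, adjusted p = 1.19e-05).

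Sfxn3, a close relative that has also been described as a serine transporter, fell. In Tlr9het it stood at 4.04, 4.38 and 4.16 log2 CPM unstimulated and at 0.73, 1.52 and 1.68 with CpG. Unstimulated Tlr997 libraries held 3.87, 3.67 and 4.23 log2 CPM and those with CpG 1.21, 0.99 and 1.00. Unstimulated Tlr779 libraries held 4.46, 3.68 and 4.43 log2 CPM and those with CL097 1.41, 1.43 and 1.62. The stimulated libraries lay below the unstimulated ones in every genotype, with none between 1.68 and 3.67. It fell, with log2 fold changes of -2.89 (SE 0.24, limma, adjusted p = 1.2e-07), -2.86 (SE 0.24, adjusted p = 1.51e-07) and -2.70 (SE 0.23, adjusted p = 3.54e-05). In unstimulated Tlr9het cells Sfxn1 stood at 2.94 and Sfxn3 at 2.56 log2 CPM per kb, and with CpG at 4.79 and -0.33.

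Sfxn5 fell by 0.80 (SE 0.21, limma, adjusted p = 0.00345) and 1.20 (SE 0.21, adjusted p = 0.000168) with CpG, and its change with CL097 was -0.58 (adjusted p = 0.0526). Its libraries stood at 2.41, 2.48 and 2.67 log2 CPM in unstimulated Tlr9het cells and at 1.52, 1.66 and 1.98 with CpG, without overlap. Sfxn4, which takes part in the assembly of iron-sulfur proteins and complex I, was near 0 log2 CPM in most libraries. Across Tlr997 libraries the level was -0.02, -0.54 and -4.74 log2 CPM unstimulated and 0.78, 0.43 and 0.99 with CpG. Its call in Tlr997 (2.499, SE 0.94, adjusted p = 0.0295) rested on the unstimulated library at -4.74, and without that library the change was 1.01 and not called (adjusted p = 0.0511). It was also lost without CpG library 1 or 3 (adjusted p = 0.0617 and 0.0755) and with no filter on low genes (0.125). In Tlr9het its change was -0.18 (adjusted p = 0.872).

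**Figure D4:**
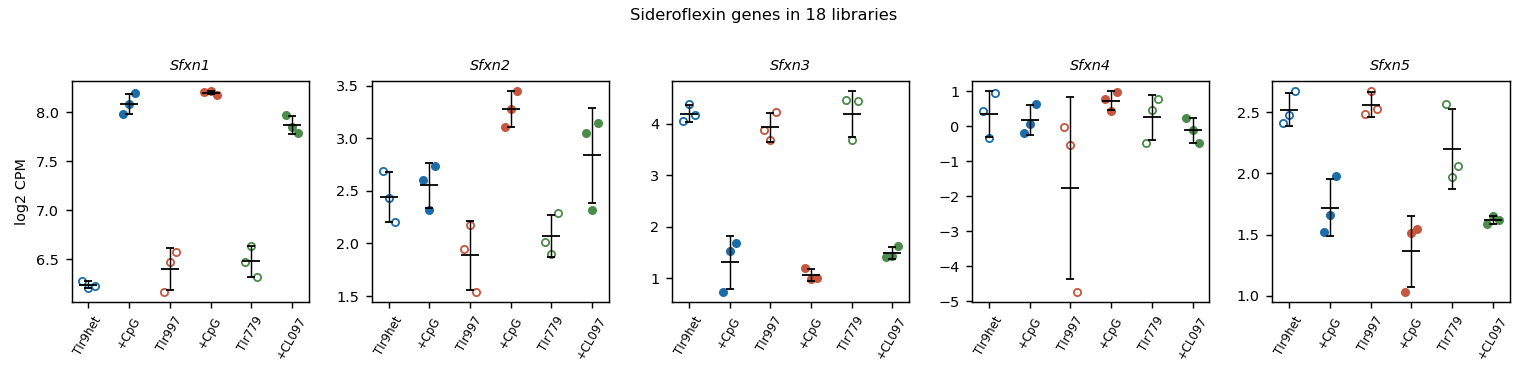
Log2 CPM (y axis) of the 5 sideroflexin genes in each of the 18 libraries, by group (x axis), with open points for unstimulated and filled points for stimulated libraries and bars for the mean ± SD (n = 3). Sfxn1 rises and Sfxn3 falls without overlap in every genotype, Sfxn2 rises with CpG in Tlr997, and 1 library of Sfxn4 lies at -4.74.

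The second question was whether the TIR domain on TLR9 made a difference. These comparisons share their libraries with the CpG responses above. Between Tlr997 and Tlr9het unstimulated, limma called 0 of 44 members, where 0.0174% of all genes were called (0.0174% higher and 0% lower), and 8 members (18.2%) had an unadjusted p under 0.05, beside 10.8% of all genes. With CpG it called 0 of 44 beside 2.72% of all genes (1.25% higher and 1.47% lower), and 7 members (15.9%) had an unadjusted p under 0.05, beside 19%. In the difference of the CpG responses (Tlr997 minus Tlr9het), 1 member was called, Sfxn2, beside 1.55% of all genes (0.687% higher and 0.861% lower), and 6 (13.6%) had an unadjusted p under 0.05, beside 16%. The median difference between genotypes over the members was 0.02 unstimulated and 0.06 with CpG on the log2 scale.

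Sfxn2, a sideroflexin linked to mitochondrial iron, stood at 2.69, 2.44 and 2.21 log2 CPM in unstimulated Tlr9het cells and at 2.604, 2.32 and 2.74 with CpG. In Tlr997 it stood at 1.95, 2.18 and 1.54 log2 CPM unstimulated and at 3.11, 3.28 and 3.45 with CpG. The Tlr9het groups overlapped, whereas in Tlr997 all CpG libraries were higher, and the unstimulated Tlr997 libraries lay below all 3 of Tlr9het. It rose by 1.39 (SE 0.21, limma, adjusted p = 4.46e-05) in Tlr997, and its change in Tlr9het was 0.11 (SE 0.21, adjusted p = 0.651). The difference of the responses was 1.28 (SE 0.30, adjusted p = 0.0435), and its parts were 0.73 with CpG (adjusted p = 0.0632) and -0.56 unstimulated (adjusted p = 0.387), neither of them called. It was kept under 11 of 24 alternatives, and leaving out single libraries lost it for 9 of 12, with adjusted p up to 0.129 and differences between 1.11 and 1.43. It was also lost with the replicate number as an additive block (adjusted p = 0.0543) and kept with the block nested in genotype (adjusted p = 0.0392).

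In Tlr779, Sfxn2 stood at 2.02, 1.90 and 2.29 log2 CPM unstimulated and at 3.05, 2.32 and 3.15 with CL097. The groups did not overlap but came within 0.033 of each other, and it rose by 0.77 (SE 0.25, limma, adjusted p = 0.0295). That call was lost on leaving out either of unstimulated libraries 1 and 2 or of CL097 libraries 1 and 3, with changes of 0.74, 0.69, 0.67 and 0.62.

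After Sfxn2, Slc25a33 was among the members with the smallest p in the difference of the responses (-0.53, 95% interval -0.99 to -0.07, adjusted p = 0.241). In the comparison with CpG they were Slc25a11 (0.28, interval 0.04 to 0.52, adjusted p = 0.188) and Slc25a45 (0.44, interval 0.05 to 0.84, adjusted p = 0.201). Unstimulated they were Slc25a5 (0.22, interval 0.08 to 0.37, adjusted p = 0.338) and Slc25a40 (-0.67, interval -1.14 to -0.20, adjusted p = 0.345). For Slc25a13, Sfxn1 and Slc25a4, which moved with CpG in both genotypes, the differences of the responses were -0.02, -0.05 and 0.01 on the log2 scale. Their limma standard errors were 0.21, 0.12 and 0.12, so small differences between genotypes were not detectable with 3 libraries a group. The differences of Slc25a13, Sfxn1 and Slc25a4 were among the smallest. Over the 24 members with a mean over 4 log2 CPM, the differences of the responses lay between -0.53 and 0.34.

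Genes that work beside the carriers were described from a list of 45 tested partners. With CpG 28 rose and 2 fell in Tlr9het and 29 rose and 2 fell in Tlr997. With CL097 21 rose and 3 fell in Tlr779. Of all genes tested, 29.7%, 29.6% and 22.7% rose in these responses and 28.2%, 26% and 23.6% fell. The same shares stand beside the counts of each part of the list below. The list was chosen with earlier results of these data known, so its counts and those of its parts are no support for a common rise. The median log2 fold change of the partners was 0.85, 0.83 and 0.43 in these responses. Of 12 genes that import carriers into the inner membrane, 10, 11 and 8 rose and 0 fell. The largest change among them was that of Timm8a1, a small chaperone of the intermembrane space, which went from 1.54 ± 0.11 to 4.44 ± 0.24 log2 CPM (SD, n = 3) in Tlr9het and rose by 2.90 (SE 0.19, limma, adjusted p = 1.04e-08).

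Of 10 enzymes of mitochondrial and cytosolic folate and serine metabolism, 8, 9 and 6 rose and 0 fell. Mthfd2, which oxidizes methylene-tetrahydrofolate in the matrix, went from 5.84 ± 0.06 to 8.79 ± 0.06 log2 CPM (SD, n = 3) with CpG in Tlr9het. It rose by 2.95 (SE 0.10, limma, adjusted p = 2.21e-11), 2.38 (SE 0.10, adjusted p = 1.79e-10) and 1.63 (SE 0.14, adjusted p = 3.09e-05). Of 9 iron-sulfur cluster and haem genes, 7, 7 and 6 rose and 0 fell. Lyrm4, a partner of the cysteine desulfurase, rose by 1.58 (SE 0.16, adjusted p = 8.46e-07) in Tlr9het.

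The enzymes of the malate-aspartate shuttle and citrate and the relatives of the carriers moved less in number. Of 6 enzymes, 2 rose and 1 fell in Tlr9het, 1 rose and 1 fell in Tlr997, and 0 rose and 1 fell with CL097. The one that fell was Mdh1, the cytosolic malate dehydrogenase, which went from 7.67 ± 0.06 to 6.45 ± 0.08 log2 CPM (SD, n = 3) with CpG in Tlr9het. It fell by 1.22 (SE 0.06, limma, adjusted p = 1.18e-09), 1.13 (SE 0.06, adjusted p = 3.03e-09) and 0.88 (SE 0.06, adjusted p = 1.53e-05), in the direction of Slc25a11 and against Slc25a13. Of 8 relatives and channels, 1 rose and 1 fell in each CpG response, and 1 rose and 2 fell with CL097. Ucp2, a carrier relative that is the uncoupling protein of immune cells, went from 9.39 ± 0.03 to 8.50 ± 0.10 log2 CPM (SD, n = 3) and fell by 0.89 (SE 0.10, adjusted p = 2.01e-06), 0.70 (SE 0.10, adjusted p = 2.14e-05) and 0.64 (SE 0.08, adjusted p = 0.00018).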

How the data were processed

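Per the labels and the study's methods, the authors prepared poly(A) libraries from bead-purified B cells, trimmed reads with Trim Galore 0.6.5, aligned them with STAR 2.6.1a to mm10, counted them per gene with featureCounts (Subread 2.0.1) and applied quantile normalization and voom. The deposited values were log2 CPM, 1 file for each of 18 libraries, so depth and counting error are unknown. CPM summed to between 991992 and 1004412 a library. In the first arm 6614 genes lay under -4 throughout, and 6306 of them had 1 value per replicate number. This shows that an offset per number had been removed from the values, a step the methods do not state. Slc25a41 held the same value per number in every group of both arms (-5.029, -5.029 and -5.098 in order of number). The second arm was thus treated too. The fits without a block count residual degrees of freedom as if no offset had been removed, so their p-values may be too small.

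The values were tested with limma 3.58.1 in R 4.3.3 with a variance prior that followed the mean (limma-trend), and no pseudocount was added. Genes entered with at least 3 fitted libraries over 0 log2 CPM. The 12 Tlr7-/- libraries were fitted together with 1 mean for every group, and the 6 Tlr779 libraries in a separate model. Calls needed a Benjamini-Hochberg adjusted p under 0.05, over all genes tested, and an absolute log2 fold change over 0.5. The labels do not say that replicates were separate mice beyond naming 3 mice a genotype, so p-values measure the spread between these libraries.

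Deviations from group means of libraries with the same number correlated at 0.51, 0.29 and 0.51 in Tlr9het and at 0.25, 0.49 and 0.33 in Tlr779, and these numbers were taken to pair the samples. In Tlr997 they correlated at 0.37, 0.08 and 0.03, and the pairing was left undecided. With the replicate block, the call of Sfxn2 in the difference of responses was the 1 call of a member that changed.

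Named genes were all sideroflexins, the 5 called members with the largest and smallest change in each response, the 3 with the smallest p (or those called) in each genotype comparison, the 2 with the largest change per role in Tlr9het, and the called partner with the largest change per partner list. Further members with a call lost on leaving out 1 library, and a few others, were named after their values were seen. Single values of 1 member and 1 marker are not reported here, though counts and sums include them. The members and lists were chosen with earlier results of these data known. Coordinates are from GENCODE vM21 (GRCm38) and promoters from RefSeq (GRCm38.p6). Alternatives changed the filter, scale, variance prior, weights, model, block, fold limit and libraries. The fit was tested on simulated data before use.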

Additional observations from a re-analysis of the deposited data

Results flagged for a closer look

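Sfxn2 was set apart because a test of the difference between the CpG responses of the genotypes passed the threshold. The response in Tlr997 minus that in Tlr9het was 1.281 on the log2 scale (SE 0.295, limma interaction term, adjusted p = 0.0435). The call was lost under 13 of 24 alternatives, among them the additive replicate block (adjusted p = 0.0543) and 9 of the 12 left-out libraries. Groups of 3 libraries were too small for a test of single libraries that stand apart, and no file was left unused.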

How the results depend on the processing

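Counts of called members moved little under most alternatives. With the fold limit at 1 on the log2 scale, 8 members fell in Tlr9het, 10 rose and 8 fell in Tlr997, and 7 rose and 7 fell in Tlr779. Leaving out 1 library at a time gave 13 to 13 higher and 14 to 16 lower in Tlr9het, 14 to 16 and 13 to 15 in Tlr997, and 10 to 14 and 9 to 12 in Tlr779. Tlr997 against Tlr9het with CpG gave 1 member higher in place of 0 with a pseudocount of 1 CPM, with array quality weights and with only the groups compared (0 to 1 over left-out libraries), and the cause was not tested. The difference of responses gave 0 members higher in place of 1 with no filter on low values (adjusted p of Sfxn2 0.122), no trend (0.0656), the additive replicate block (0.0543) and all 18 libraries in 1 model (0.0665), and 0 to 1 over left-out libraries. The other genotype counts stayed at 0 to 0. The replicate block, additive or nested in genotype, changed no other call of a member. Of the called members, 27 of 28 in Tlr9het, 26 of 31 in Tlr997 and 18 of 27 in Tlr779 kept the call whichever 1 library was left out.

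Sign changes occurred only in results that were not called. Sfxn4 in Tlr9het was 0.006 with array quality weights and between -0.527 and 0.121 over left-out libraries, and Sfxn2 in Tlr9het was between -0.007 and 0.232. The difference of the CpG responses of Sfxn3 lay between -0.263 and 0.211 and that of Sfxn1 between -0.169 and 0.035. Low genes such as Slc25a35, Slc25a27, Slc25a47 and Sfxn4 rest on few counts, and the unknown depth limits what can be said of their size.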
